A study of Mus musculus with 24 samples.

Results

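The cytochrome P450 genes of families 1 to 3 were examined in liver, brainstem and cerebellum of Atxn2-CAG42 knock-in mice and wild type littermates. A probe set was taken when the platform annotation gave it 1 gene and that gene's symbol began with Cyp1, Cyp2 or Cyp3 followed at once by a lower-case letter. This selected 45 probe sets for 38 genes, out of 45037 tested probe sets, of which 28898 carried 1 gene and covered 17097 genes. Of these 38 genes, 33 had 1 probe set, 3 had 2 and 2 had 3. Each tissue was measured in 4 homozygous CAG42 mice and 4 WT mice, with 1 Affymetrix array per mouse and tissue, 24 arrays in all. The CAG42 mice carry an expanded repeat placed in exon 1 of the mouse Atxn2 gene itself. The endogenous promoter thus drives it in every cell that uses the gene. The line was made in ES cells of another strain and was backcrossed from a mixed background into C57BL/6. WT littermates came from heterozygous matings. The labels give neither age nor sex, and the study's methods state that the deposited arrays come from its older animals. Levels are deposited log2 values, in which 1 unit is a 2-fold difference. In pieces of whole tissue, fewer cells of a type and less RNA per cell cannot be told apart.

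Cytochrome P450 enzymes are haem proteins that insert oxygen into their substrates, with electrons passed on by P450 oxidoreductase in the endoplasmic reticulum. Families 1 to 3 handle drugs, plant compounds and pollutants, and they also act on steroids, retinoids, bile acids and arachidonic acid. In liver, where most of them are made in hepatocytes around the central vein, family 1 responds to the aryl hydrocarbon receptor (AhR), the Cyp2b and Cyp2c genes to the constitutive androstane receptor (CAR), and Cyp3a genes to the pregnane X receptor (PXR). Several mouse members differ between the sexes through the pattern of growth hormone secretion.

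The genes lie in clusters of close relatives. The Cyp2a, Cyp2b, Cyp2f and Cyp2g genes share mouse chromosome 7 with Cyp2e1 and Cyp2r1, the 8 Cyp2c genes lie on chromosome 19, the 6 Cyp2d genes on chromosome 15, the 6 Cyp3a genes on chromosome 5, the 4 Cyp2j genes on chromosome 4 and Cyp1a1 and Cyp1a2 on chromosome 9. Neighbours that arose by duplication can share probe sequence, and a probe set may then also read a relative; 4 member probe sets carry the suffix s_at and 4 the suffix a_at, which mark probes shared between transcripts.

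The arrays of the 3 tissues were of like overall level. The array medians were 4.13 to 4.25 in liver, 4.56 to 4.62 in brainstem and 4.42 to 4.54 in cerebellum. Control probe sets that match no transcript, 23 per array, had medians of 2.89 to 3.06 in liver, 2.61 to 2.76 in brainstem and 2.58 to 2.77 in cerebellum, and a member at about 3 was therefore at the level of these controls. The brightest control of each array read 3.64 to 5.26 in liver, 4.46 to 5.08 in brainstem and 4.38 to 5.26 in cerebellum. Members in that range were not above every control. The livers are numbered by their labelled replicate. WT liver 1 stood apart, with correlations of 0.954 to 0.982 with the other livers over all probe sets, against 0.975 to 0.994 among the other 7 livers. Hepatocyte markers (Alb, Ahsg and others, 5 of 6 listed genes measured) averaged 12.85 to 12.90 in CAG42 livers and 12.85 to 13.01 in WT livers, and 3 neuronal markers averaged 11.71 to 12.09 in the brain samples. Xist, which is transcribed from the inactive X chromosome, lay between 11.10 and 11.61 in every liver, and the Y-linked Kdm5d lay between 2.66 and 3.54. The brighter probe set of Eif2s3y, another Y-linked gene, read 5.08 to 5.68 in CAG42 livers and 4.48 to 5.84 in WT livers. In the brain samples it read 2.36 to 3.17. The other probe set of Eif2s3y read 2.61 to 3.10 in the livers, near the level of the controls. Uty, also Y-linked, did not exceed 3.42 in any liver with either of its probe sets.

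Nearly all of the P450 genes were liver transcripts. Of the 45 member probe sets, 37 (of 32 genes) were higher in liver than in cerebellum, while 16.5% of all probe sets were, and 1 was lower, beside 29.8% of all. Against brainstem, 35 (of 32 genes, not all the same) were higher in liver, beside 15% of all probe sets, and 2 were lower, beside 30.2%. Cyp1b1 was counted on both sides there, through different probe sets. These calls required an adjusted p under 0.05 and a difference of at least 1 on the log2 scale, in limma's fit over 24 arrays averaged over both genotypes. In liver the mean level was 10 or more for 17 member probe sets, 5 to 10 for 20 and under 5 for 8. In the brain it was under 4 for 38 member probe sets in brainstem and for 39 in cerebellum.

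**Figure D1:**
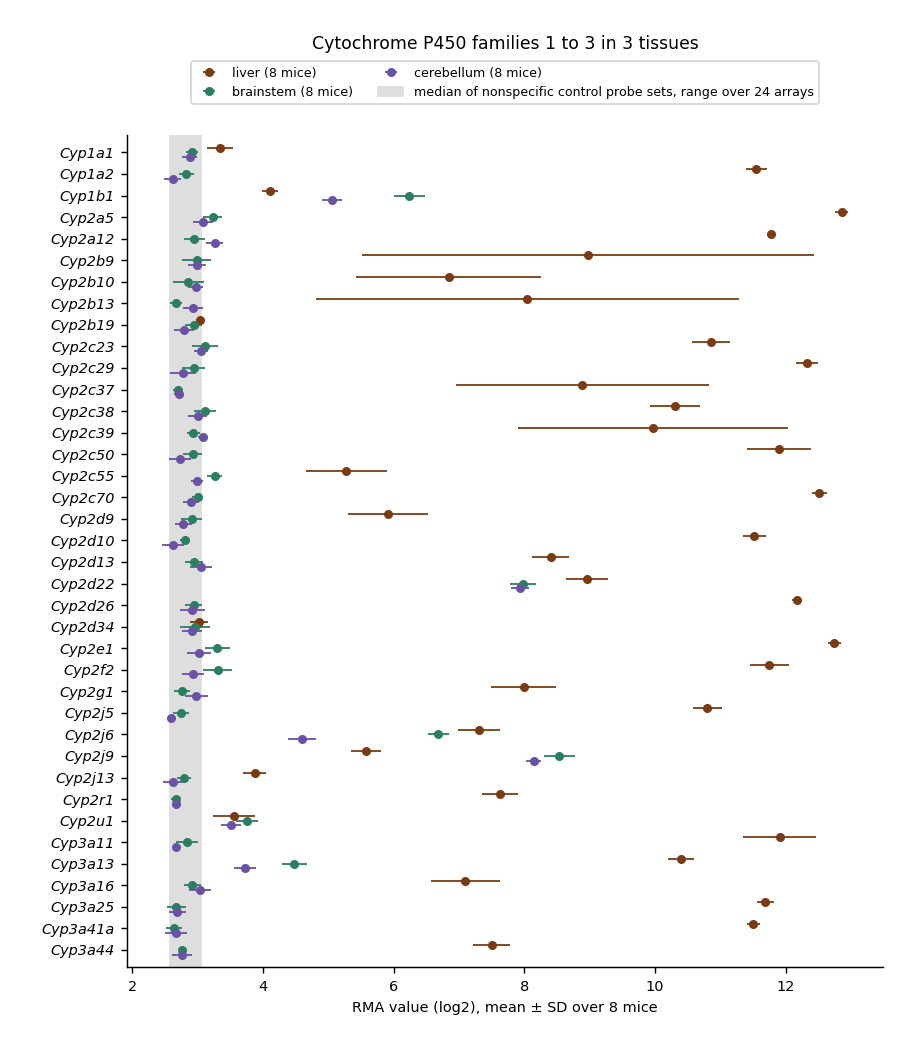
Mean log2 level of each P450 gene (1 probe set per gene) in liver, brainstem and cerebellum, each point the mean of 8 mice with its SD and the grey band the medians of the control probe sets. Most genes lie far to the right in liver and near 3 in both brain regions, while Cyp2j9, Cyp1b1, Cyp2j6 and Cyp2d22 are at 4.59 or more in both brain regions.

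The 12 genes with the largest difference between liver and cerebellum came from 7 subfamilies. Cyp2a5, the coumarin hydroxylase, averaged 12.86 in liver and 3.08 in cerebellum, a difference of 9.77 (SE 0.07, adjusted p = 1.23e-31), or 876-fold. Cyp2e1, which oxidises ethanol and acetaminophen, averaged 12.74 in liver against 3.02 in cerebellum (842-fold). Cyp2c70, which makes the muricholic acids of rodent bile, averaged 12.52 in liver and 2.90 in cerebellum (787-fold).

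Among the other genes of this group, Cyp2c29 (754-fold), Cyp2c50 (577-fold) and Cyp2d26 (609-fold) belong to the large chromosome 19 and chromosome 15 clusters. Cyp3a11, the main PXR-responsive member in mouse liver, was 602-fold higher in liver than in cerebellum, Cyp3a25 512-fold and Cyp3a41a, which is made mostly by females, 458-fold. Cyp1a2, which oxidises caffeine and oestrogens, was 490-fold higher, Cyp2d10 478-fold and Cyp2f2, known for activating naphthalene, 454-fold. All 12 passed the test against brainstem as well. The brain values of these genes lay at or near the level of the control probe sets, so that these folds are set by the lower end of the array's scale and not by a level measured in brain.

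Of the 32 genes with a RefSeq promoter window (GRCm38.p6), 17 had TATAAA on either strand within the 250 bases before the start. This was 48.6% of 35 member windows, beside 12.4% of all 32851 windows. The core of the AhR response element, GCGTG on either strand, was in 17.1% of member windows and 28.2% of all. The nuclear receptor core AGGTCA on either strand was in 34.3% of member windows and 14% of all, and CCAAT on either strand in 31.4% and 33.8%. TTCNNNGAA, the STAT5 motif, which reads alike on both strands, was in 0 member windows and 7.02% of all. The motifs were searched independently, their letters do not contain each other, and relatives within a cluster are not independent windows. No window was found for Cyp2c23, Cyp2d13, Cyp2d22, Cyp2d34, Cyp2g1 and Cyp2u1. The window of Cyp1a2, a gene high in all 8 livers, is given as an example, from the minus strand at chr9:57683656-57683905, with TATAAA in capitals.
Cyp1a2: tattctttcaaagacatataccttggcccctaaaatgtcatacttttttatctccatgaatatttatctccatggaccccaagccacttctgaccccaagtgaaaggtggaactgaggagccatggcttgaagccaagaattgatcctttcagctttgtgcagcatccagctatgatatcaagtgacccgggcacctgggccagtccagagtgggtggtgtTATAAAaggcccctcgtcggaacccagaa

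Few members were clearly present in the brain. Cyp2j9, an arachidonic acid epoxygenase known from brain, had a mean of 5.57 in liver, 8.54 in brainstem and 8.14 in cerebellum. Its difference was -2.57 between liver and cerebellum (SE 0.10, adjusted p = 1.26e-17) and -2.97 between liver and brainstem (adjusted p = 6.71e-19). It was the only member called lower in liver than in both brain regions with the minimum difference of 1. Its lowest value in any brain sample, 8.01, lay above its highest value in liver, 5.91.

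Cyp1b1, which acts on oestrogens and is known from perivascular cells outside the liver, averaged 4.11 in liver, 6.24 in brainstem and 5.06 in cerebellum. Its liver and cerebellum means lay within the ranges of the brightest controls there, 3.64 to 5.26 and 4.38 to 5.26. Liver was 2.12 below brainstem (log2 difference -2.12, adjusted p = 1.31e-16), and its difference from cerebellum, -0.95 (SE 0.09, adjusted p = 8.66e-10), was just under the minimum of 1. Brainstem was above cerebellum by 1.18 (SE 0.09, adjusted p = 6.84e-11), a 2.26-fold difference, with brainstem values of 6.05 to 6.77 and cerebellum values of 4.87 to 5.36 that did not overlap. The other 2 probe sets of this gene did not follow it, with means of 2.72 and 2.85 in brainstem and 2.91 and 2.73 in cerebellum. In liver they averaged 3.85 and 2.86. The first of them was higher in liver than in brainstem, by 1.13 (SE 0.16, adjusted p = 4.49e-07 in the same fit). The probe sets of Cyp1b1 were thus called in opposite directions between liver and brainstem.

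Cyp2j6, another member of the fatty acid epoxygenase subfamily, was higher in brainstem than in cerebellum with both of its probe sets. The brighter one averaged 7.31 in liver, 6.68 in brainstem and 4.59 in cerebellum, and brainstem minus cerebellum was 2.09 (SE 0.12, adjusted p = 3.01e-13), or 4.25-fold. Its cerebellum mean lay within the range of the brightest controls there, 4.38 to 5.26, and was thus not above every control. The second one gave 2.16 (SE 0.14, adjusted p = 2.42e-12). These probe sets and that of Cyp1b1 made 3 members higher in brainstem, beside 6.87% of all probe sets, and 0 were lower, beside 5.11%.

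Markers of other cell types differed between the same samples. The mean of 3 brain endothelium markers was 8.28 to 8.63 in CAG42 brainstem and 8.24 to 8.45 in WT brainstem, against 7.50 to 7.92 in CAG42 cerebellum and 7.50 to 7.67 in WT cerebellum. The mean of 4 choroid plexus markers was 7.58 to 8.14 in CAG42 brainstem and 7.05 to 8.38 in WT brainstem, against 6.83 to 7.46 in CAG42 cerebellum and 5.0 to 7.2 in WT cerebellum. The mean of 4 markers of meninges and fibroblasts was 7.0 to 7.18 in CAG42 brainstem and 6.70 to 7.43 in WT brainstem, against 6.61 to 6.89 in CAG42 cerebellum and 6.32 to 6.82 in WT cerebellum. Their part in the levels of Cyp1b1 and Cyp2j6 was not tested.

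Cyp2d22, a mouse relative of the human drug-metabolising CYP2D6, was present in all 3 tissues. It averaged 8.96 in liver, 7.98 in brainstem and 7.94 in cerebellum, and liver was 2.03-fold above cerebellum (log2 difference 1.02, adjusted p = 1.94e-09). With its other probe set the distance was wider, 2.73 on the log2 scale. Cyp3a13 was 10.40 in liver, 4.48 in brainstem and 3.72 in cerebellum, and its brainstem minus cerebellum difference of 0.76 (adjusted p = 3.99e-07) was under the minimum of 1. Cyp2r1, which hydroxylates vitamin D in liver, was 7.63 in liver and 2.67 in both brain regions.

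**Figure D2:**
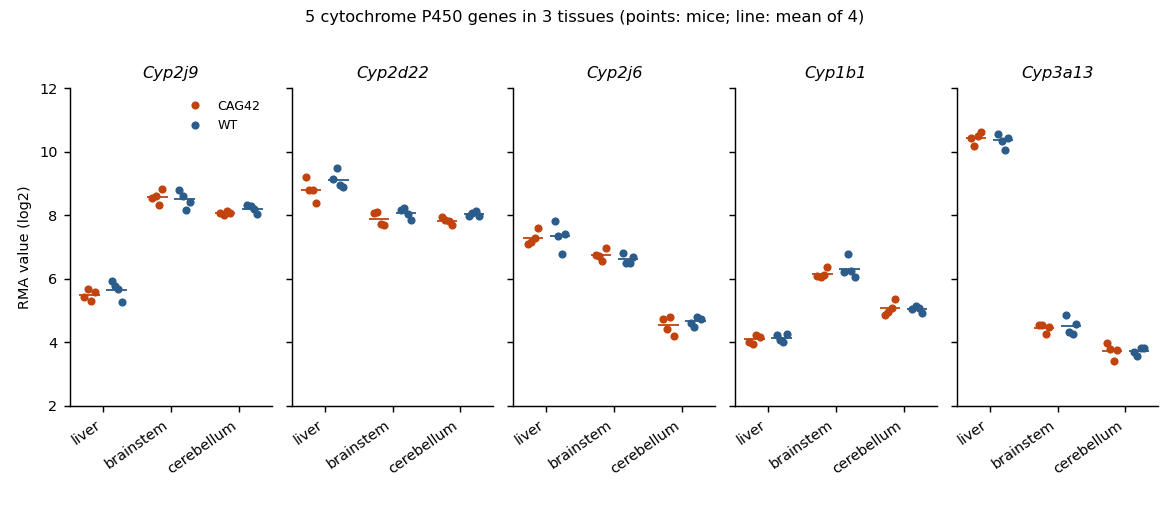
Log2 levels of Cyp2j9, Cyp2d22, Cyp2j6, Cyp1b1 and Cyp3a13 in each CAG42 and WT mouse, by tissue, each point being 1 array and each line the mean of 4. Cyp2j9 and the brightest probe set of Cyp1b1, the one shown, are higher in the brain samples than in liver. Cyp2j6 separates brainstem from cerebellum, and CAG42 and WT points overlap closely in most panels.

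At the other end, Cyp1a1, Cyp2b19 and Cyp2d34 were near the control probe sets in all 3 tissues, with means of 3.35, 3.03 and 3.02 in liver. Cyp1a1 is known as the AhR target that stays silent without an inducer, and Cyp2b19 as a skin enzyme. Cyp2u1, a fatty acid hydroxylase, was 3.55 in liver, 3.75 in brainstem and 3.51 in cerebellum and differed by less than 1 between tissues. At such levels presence and absence cannot be separated with these values.

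The livers differed more from each other in some P450 genes than in most transcripts. Over the 45 member probe sets the median SD was 0.170 among CAG42 livers and 0.265 among WT livers, beside 0.149 and 0.223 over all probe sets. The range over the 8 livers was at least 2 on the log2 scale in 7 member probe sets (15.6%), beside 1.55% of all probe sets, and at least 1 in 18. These 7 belonged to 5 genes: Cyp2b9, Cyp2b13, Cyp2b10, Cyp2c37 and Cyp2c39.

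Cyp2b9, a steroid hydroxylase made mostly by female mouse liver, read 11.25, 11.25, 11.16 and 9.77 in CAG42 livers and 3.61, 10.34, 3.25 and 11.15 in WT livers. WT livers 1 and 3 were at the level of the control probe sets, while the other 6 livers were all at 9.77 or more, and no fold is given against values at that level. The empty stretch between 3.61 and 9.77 was 6.16 wide. In brainstem and cerebellum it did not exceed 3.40.

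Cyp2b13, the neighbouring gene with the same female bias, split the same livers. It read 10.62, 9.88, 9.65 and 7.78 in CAG42 livers and 3.44, 9.60, 2.61 and 10.78 in WT livers. Again WT livers 1 and 3 were lowest, 4.34 below the next liver, and not above the control probe sets. Both genes are close copies, and shared probe sequence cannot be told apart from shared regulation with these values.

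The promoter windows of this pair are shown because the pair moved together and because their sequences are nearly the same. Without gaps, 248 of the 250 bases of the window are identical (99.2%), and the changes from Cyp2b9 to Cyp2b13 are T48C and C104T, counted from 1 at the window's 5′ end. The last 107 bases are not printed, since they lie within the annotated transcript of at least 1 gene of the pair. The identity is therefore not that of upstream sequence alone. The first 143 bases of each window are printed, from the plus strand, with the 2 differing bases and the AGGTCA motif in capitals; Cyp2b9 is at chr7:26173159-26173301 and Cyp2b13 at chr7:26061245-26061387.
Cyp2b9: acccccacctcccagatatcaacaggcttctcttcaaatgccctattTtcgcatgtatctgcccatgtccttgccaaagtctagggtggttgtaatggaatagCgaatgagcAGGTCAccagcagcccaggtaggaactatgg
Cyp2b13: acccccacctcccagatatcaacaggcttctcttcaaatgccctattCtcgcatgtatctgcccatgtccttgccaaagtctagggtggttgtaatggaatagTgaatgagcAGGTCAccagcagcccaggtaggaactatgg

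Cyp2b10, the usual readout of CAR activation in mouse liver, varied less widely and in part with the same livers. It read 8.10, 8.29, 8.14 and 5.88 in CAG42 livers and 4.43, 7.30, 5.54 and 7.05 in WT livers. The lowest livers were WT 1 and WT 3, with CAG42 liver 4 just above them, and the largest gap between neighbours was 1.17. The other 2 probe sets of the gene had the same 3 livers lowest, with levels of 4.11 to 8.20 and 4.51 to 8.35. The Cyp2b10 window differs from that of Cyp2b9, with 126 of 249 bases identical at the best shift without gaps (50.6%); it is given below from the plus strand at chr7:25897408-25897657, with the GCGTG motif of either strand in capitals.
Cyp2b10: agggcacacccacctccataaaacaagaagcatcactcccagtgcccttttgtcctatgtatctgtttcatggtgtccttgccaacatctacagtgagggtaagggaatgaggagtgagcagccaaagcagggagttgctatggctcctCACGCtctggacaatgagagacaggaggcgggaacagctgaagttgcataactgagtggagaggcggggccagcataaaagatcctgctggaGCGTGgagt

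Cyp2c37, a CAR-responsive arachidonic acid epoxygenase, divided the livers differently. It read 10.55, 7.41, 7.18 and 6.55 in CAG42 livers and 10.68, 10.45, 7.26 and 11.02 in WT livers. CAG42 livers 2, 3 and 4 and WT liver 3 were low, at least 3.04 below the other 4, and the range spanned 22.2-fold. Cyp2c50, its near relative, varied in a narrower band, at 12.15, 11.51, 11.53 and 11.13 in CAG42 livers and 12.50, 11.97, 11.93 and 12.50 in WT livers. CAG42 livers 2, 3 and 4 were lowest here too. WT livers 2 and 3, apart for Cyp2c37 at 10.45 and 7.26, were close for Cyp2c50.

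The windows of Cyp2c37 and Cyp2c50 are given to show how close this pair is, with 199 of 248 bases identical at a shift of 2 bases without gaps (80.2%). Both are from the plus strand, at chr19:39992174-39992423 and chr19:40089429-40089678, with CCAAT of either strand in capitals.
Cyp2c37: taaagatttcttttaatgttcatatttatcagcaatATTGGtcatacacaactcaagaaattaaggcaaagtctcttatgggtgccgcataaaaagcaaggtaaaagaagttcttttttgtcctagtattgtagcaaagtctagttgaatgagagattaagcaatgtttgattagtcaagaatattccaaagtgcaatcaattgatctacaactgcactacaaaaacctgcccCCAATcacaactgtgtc
Cyp2c50: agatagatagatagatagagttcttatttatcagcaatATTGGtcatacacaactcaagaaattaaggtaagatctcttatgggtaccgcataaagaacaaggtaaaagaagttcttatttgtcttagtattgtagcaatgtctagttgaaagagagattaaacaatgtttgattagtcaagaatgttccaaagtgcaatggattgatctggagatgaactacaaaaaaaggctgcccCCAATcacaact

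Cyp2c39, a retinoic acid hydroxylase, was low in 1 liver of each genotype. It read 6.98, 11.49, 11.27 and 11.04 in CAG42 livers and 10.87, 10.46, 11.28 and 6.36 in WT livers. CAG42 liver 1 and WT liver 4 lay 3.49 below the rest, and the range spanned 34.9-fold. Cyp2c38, a close relative in the same cluster, showed no such gap and stayed between 9.91 and 10.77 in all 8 livers.

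A gap of at least 2 between neighbouring livers was thus found in 4 of 45 member probe sets, Cyp2b9, Cyp2b13, Cyp2c39 and Cyp2c37, beside 0.0844% of all probe sets (38 in all). The limit of 2 was chosen after these values were seen. In 20 of those 38, a single liver was apart from the other 7. The split of Cyp2b9 was shared by 3 of the 38: Cyp2b9, Cyp2b13 and a probe set with no gene in the annotation. The livers that were low differed between Cyp2b9, Cyp2c37 and Cyp2c39, so no single liver accounted for all 3 patterns.

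**Figure D3:**
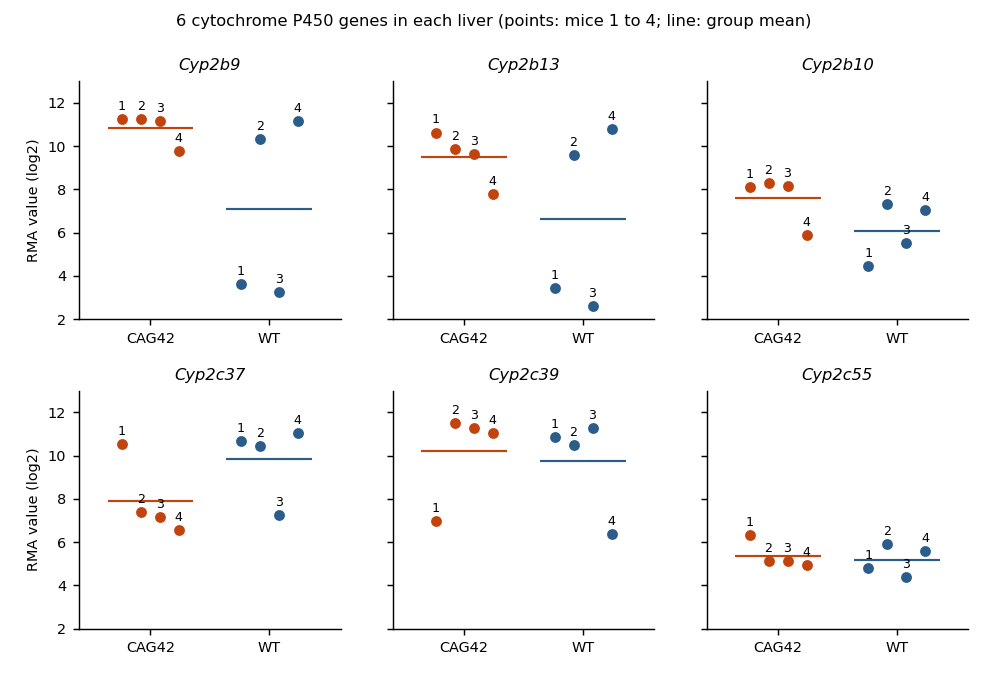
Log2 level of the most variable P450 genes in each of the 8 livers, CAG42 mice 1 to 4 left of WT mice 1 to 4, with lines at the group means. WT livers 1 and 3 are low for Cyp2b9 and Cyp2b13, a different set of 4 livers is low for Cyp2c37, and 1 liver of each genotype is low for Cyp2c39.

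The remaining genes among the 10 with the largest spread within groups moved over less than 2 units. Cyp2c55 read 6.32, 5.12, 5.11 and 4.93 in CAG42 livers and 4.82, 5.89, 4.40 and 5.60 in WT livers. Cyp2d9, which is made mostly by male mouse liver, read 5.07, 5.50, 6.62 and 5.57 in CAG42 livers and 5.70, 5.83, 6.08 and 6.93 in WT livers. Cyp3a11 was 11.83 to 12.09 in CAG42 livers and 10.61 to 12.43 in WT livers, with WT liver 3 alone below 11.

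Cyp3a16, known from fetal and newborn liver, was 6.95 to 7.43 in CAG42 livers and 6.54 to 8.21 in WT livers, with WT liver 1 highest. Cyp2g1, known from olfactory mucosa, was 7.52 to 8.61 in CAG42 livers and 7.14 to 8.15 in WT livers. In both groups liver 3 was lowest for this gene, although no source states that the numbers pair CAG42 with WT mice.

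Other members hardly varied. Cyp2a12, a steroid and bile acid hydroxylase, had an SD of 0.07 among CAG42 livers and 0.05 among WT livers. Cyp2a5, Cyp2e1, Cyp2c70, Cyp2d26, Cyp3a25 and Cyp3a41a had SDs of no more than 0.14 in both groups. Cyp1a2 read 11.59, 11.62, 11.74 and 11.26 in CAG42 livers and 11.50, 11.42, 11.59 and 11.71 in WT livers. Thus Cyp3a41a, also female-biased in mouse, stayed within 0.29 over the same 8 livers.

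**Figure D4:**
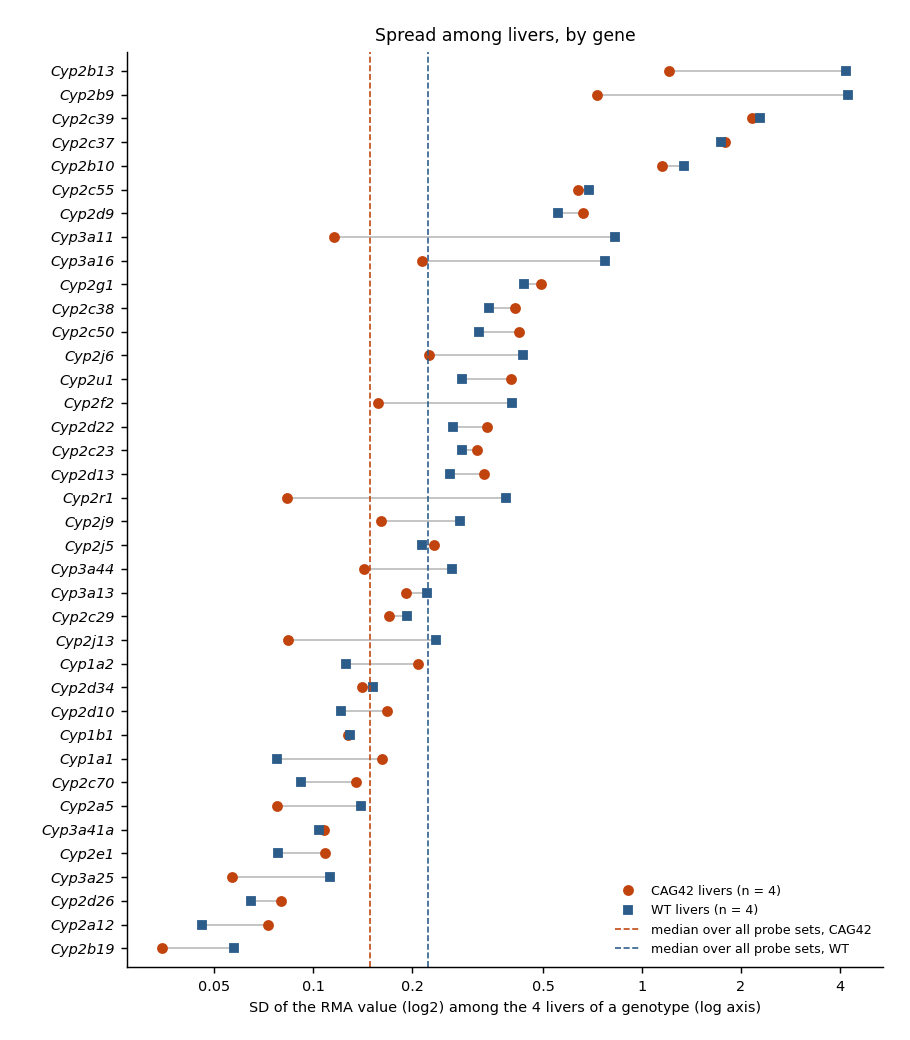
Spread of the log2 level within liver groups for each P450 gene, as the SD over 4 CAG42 and 4 WT livers, on a logarithmic axis, with dashed lines at the medians over all probe sets. Cyp2b9, Cyp2b13, Cyp2b10, Cyp2c37 and Cyp2c39 exceed 1 in at least 1 genotype, while Cyp2a12, Cyp2d26 and Cyp3a25 are at 0.11 or below in both.

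WT livers 1 and 3, the low ones for Cyp2b9, were also the lowest WT livers for acute-phase genes. Among CAG42 livers it was the other way, since liver 4, lowest for Cyp2b9 at 9.77, was highest for the acute-phase mean. The mean of 15 acute-phase genes was 9.0, 8.92, 9.15 and 9.41 in CAG42 livers and 8.79, 9.20, 8.46 and 9.42 in WT livers, and Saa1, a serum amyloid, was 9.28, 8.81, 9.40 and 9.50 in CAG42 livers and 8.84, 10.37, 7.10 and 10.62 in WT livers. Their part in the spread of the Cyp2b genes was not tested. The female-biased genes outside the P450s (9 measured) averaged 9.29, 9.11, 8.87 and 8.92 in CAG42 livers and 9.10, 9.11, 8.50 and 8.94 in WT livers, a narrower band, and WT liver 3 was lowest.

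Markers of cell types were compared in the same livers. Kupffer cell markers (5 of 5 measured) averaged 7.89, 8.16, 8.36 and 9.61 in CAG42 livers and 8.24, 8.39, 8.28 and 8.78 in WT livers. CAG42 liver 4, lowest of its group for Cyp2b9, Cyp2b13, Cyp2b10 and Cyp2c37, was highest. Among WT livers it was the other way, since livers 1 and 3, lowest for Cyp2b9, had the lowest Kupffer means. Markers of hepatocytes around the central vein outside the P450s (4 of 5 measured) averaged 8.86, 9.09, 9.35 and 8.63 in CAG42 livers and 9.52, 9.24, 8.67 and 9.30 in WT livers. CAG42 liver 4 and WT liver 3 were the lowest of their groups, and both were low for Cyp2c37. The other low livers for Cyp2c37, CAG42 livers 2 and 3 at 7.41 and 7.18, had the highest marker means of their group. The CAG42 liver with a marker mean of 8.86 was high for Cyp2c37, at 10.55. Markers of hepatocytes around the portal vein (4 of 5 measured) averaged 9.88 to 10.09 in CAG42 livers and 9.83 to 10.09 in WT livers.

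Liver endothelium markers (4 of 4 measured) averaged 7.46, 7.59, 7.73 and 7.14 in CAG42 livers and 7.21, 7.66, 6.81 and 7.14 in WT livers. CAG42 liver 4 and WT liver 3 were again lowest in their groups. CAG42 livers 2 and 3, low for Cyp2c37 as well, were again the highest of their group. Of these markers, 1 had an unadjusted p under 0.05 between the genotypes, beside 3.36% of all probe sets. It was Clec4g, with a difference of 0.41 (SE 0.16). Stellate cell markers (4 of 4 measured) also had 1 at that p, lower in CAG42 livers. Genes outside the P450s that respond to CAR and PXR (7 measured) averaged 10.17, 10.16, 10.05 and 9.70 in CAG42 livers and 10.06, 10.03, 10.03 and 9.97 in WT livers. CAG42 liver 4 was lowest here as well. Among WT livers, liver 1, low for Cyp2b9 and Cyp2b10, was highest and liver 4 was lowest. The part of these cells and genes was not tested.

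The comparison of CAG42 with WT livers asked whether the expansion changed P450 expression. No member passed the adjusted test: 0 of 45 were called, as were 0% of all probe sets, and limma gave each member an adjusted p of 0.99998. At an unadjusted p under 0.05 there were 3 members, Cyp1a1, Cyp2c50 and Cyp3a44, beside 3.36% of all probe sets. The values of both genotypes did not overlap for 1 member, Cyp1a1, beside 2.76%. The median difference of the members was -0.05, beside -0.01 over all probe sets, with 20 members above 0 and 25 below, and it was 0.01 without WT liver 1.

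The largest liver differences had the largest errors. Cyp2b9 was higher in CAG42 livers by 3.77 on the log2 scale (SE 1.74), Cyp2b13 by 2.88 (SE 1.76) and Cyp2b10 by 1.52 (SE 0.72). Without WT liver 1 these differences were 2.61, 1.82 and 0.97, and without WT liver 3 they were 2.49, 1.54 and 1.34. The Cyp2b9 values of WT livers 2 and 4 lay within the range of the CAG42 livers.

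Cyp2c37 had the lowest difference, -1.93 (SE 1.01), or -2.79 without WT liver 3. Cyp2c50 was lower in CAG42 livers by 0.65 (difference -0.65, SE 0.23), and its highest CAG42 value, 12.15, lay among the WT values. Cyp2c39 gave 0.45 (SE 1.27), and its sign rested on single livers. None of these passed adjustment.

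Cyp1a1 was 3.32, 2.98, 3.16 and 3.32 in CAG42 livers and 3.41, 3.48, 3.51 and 3.60 in WT livers, a difference of -0.30 (SE 0.11). All 4 CAG42 values lay below all 4 WT values, at the level of the control probe sets. Cyp3a44, a female-biased member, was 7.71, 7.86, 7.68 and 7.51 in CAG42 livers and 7.51, 7.20, 7.53 and 6.98 in WT livers, a difference of 0.38 (SE 0.14). The groups overlapped only between 7.51 and 7.53. The other genes of lowest p were Cyp3a25 (-0.18, SE 0.09), Cyp2d10 (-0.21, SE 0.11) and Cyp2d22 (-0.31, SE 0.19), all without a call.

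For most members the liver comparison was narrow. The difference was under 0.5 in size in 38 of 45 member probe sets, and its SE was under 0.25 in 32. Cyp1a2 differed by 0.00 (SE 0.13), Cyp2a5 by 0.01 (SE 0.10), Cyp3a41a by 0.01 (SE 0.10) and Cyp2c29 by 0.06 (SE 0.13). A p that missed the threshold does not show that the genotypes were alike, and 4 mice a group limit the precision.

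**Figure D5:**
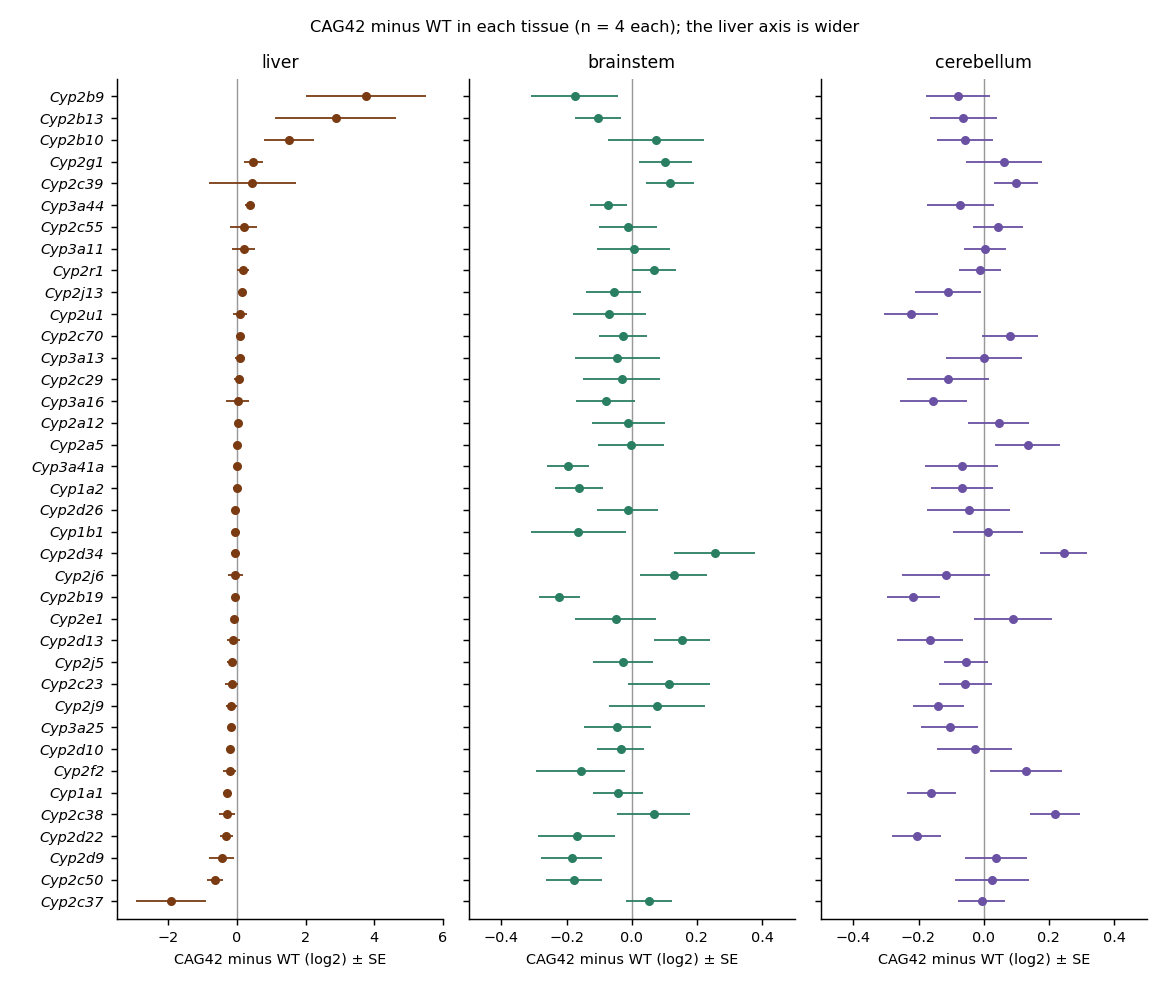
CAG42 minus WT log2 difference of each P450 gene in liver, brainstem and cerebellum, with bars of 1 standard error from limma and a wider axis for liver. The brain differences stay within 0.25 or so of 0, while the liver differences of Cyp2b9, Cyp2b13, Cyp2b10 and Cyp2c37 are large with wide bars.

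The brain gave small differences in both directions. In brainstem 0 members were called, beside 0.0133% of all probe sets, and the differences ran between -0.22 and 0.25 with a median of -0.03. Cyp2b19 and Cyp3a41a had an unadjusted p under 0.05, beside 6.46% of all probe sets. The genotypes did not overlap in 3 members, beside 3.7%: Cyp2b19, Cyp3a41a and 1 of 3 probe sets of Cyp2b10, all lower in CAG42.

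Cyp2b19 read 2.83, 2.79, 2.81 and 2.89 in CAG42 brainstem and 3.05, 3.13, 2.98 and 3.04 in WT brainstem (difference -0.22, SE 0.06, adjusted p = 0.755). All of these values were near the control probe sets. Cyp3a41a likewise read 2.49 to 2.58 in CAG42 brainstem and 2.63 to 2.78 in WT brainstem.

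In cerebellum 0 members were called, beside 0.0222% of all probe sets, with differences between -0.22 and 0.25 and a median of -0.05. An unadjusted p under 0.05 was found for 5 members, beside 5.87% of all: Cyp2b19, Cyp2c38, Cyp2d22, Cyp2d34 and Cyp2u1. The genotypes did not overlap in 4, beside 3.94%: Cyp1a1, Cyp2b19 and Cyp2d22 were lower in CAG42 and Cyp2d34 was higher. Cyp2d22 was the only one of these clearly above the controls, at 7.96, 7.86, 7.81 and 7.70 in CAG42 cerebellum and 7.98, 8.08, 8.13 and 7.96 in WT cerebellum (difference -0.21, SE 0.08, adjusted p = 0.838). The highest CAG42 value equalled the lowest WT value to 2 decimals. Its second probe set gave -0.13 (SE 0.09).

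In brainstem the members with clear signal overlapped between the genotypes. Cyp2j9 read 8.53, 8.60, 8.34 and 8.83 in CAG42 brainstem and 8.81, 8.61, 8.15 and 8.43 in WT brainstem. Cyp1b1 read 6.10, 6.05, 6.11 and 6.37 in CAG42 brainstem and 6.20, 6.77, 6.26 and 6.06 in WT brainstem. Cyp2j6 read 6.74, 6.72, 6.57 and 6.96 in CAG42 brainstem and 6.80, 6.50, 6.49 and 6.68 in WT brainstem.

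Genes that work with the P450s were followed in 31 lists, which together held 178 measured genes and include the members and the markers above, and 0 lists had a called gene in any tissue. The receptors and their partners (7 of 8 measured) had 0 genes with an unadjusted p under 0.05 in liver. Nr1i3, which encodes CAR, read 9.77, 9.62, 9.48 and 9.35 in CAG42 livers and 9.53, 9.27, 9.91 and 9.83 in WT livers, and Nr1i2, which encodes PXR, differed by -0.08 (SE 0.19). In WT livers 1 and 3, which were low for Cyp2b9, Nr1i3 lay within the range of the other livers or above it.

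In the AhR pathway (7 of 8 measured) 1 gene had an unadjusted p under 0.05 (beside 3.36% of all probe sets), the AhR repressor Ahrr, lower in CAG42 livers with a difference of -0.36 (SE 0.13). The receptor gene Ahr differed by 0.38 (SE 0.18). Among the electron donors and haem supply (8 of 10 measured) 1 gene had an unadjusted p under 0.05, beside the same 3.36%. It was Cyb5r3, a cytochrome b5 reductase, higher by 0.33 (SE 0.10). Alas1, the rate-limiting enzyme of haem synthesis, was higher by 0.45 (SE 0.20). Neither passed adjustment.

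In growth hormone signalling (13 of 13 measured) 1 gene had an unadjusted p under 0.05 in liver, beside 3.36% of all probe sets. It was Onecut1, a transcription factor that acts on female-biased P450s in mouse, with a difference of 0.63. Of the enzymes of the next step, the glucuronosyl and glutathione transferases (16 of 19 measured), 3 had an unadjusted p under 0.05 in liver, Gstm2 (0.43), Gstm4 (0.42) and Gstm6 (0.26), all higher in CAG42, beside 3.36% of all probe sets at that p. Interferon-stimulated genes (8 of 11 measured) had 6 such genes in liver, all higher in CAG42, beside the same 3.36%, with list means of 6.17, 6.79, 7.44 and 7.13 in CAG42 livers and 5.63, 5.90, 5.01 and 6.30 in WT livers. WT livers 1 and 3 were lowest for this list, as they were for Cyp2b9. Among CAG42 livers the orders differed, since liver 1 was lowest for the list and liver 4 was lowest for Cyp2b9, at 9.77. The part of these genes in the P450 values was not tested.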

How the data were processed

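Total RNA of liver, brainstem and cerebellum was hybridised to Affymetrix arrays, and the authors deposited log2 values made by RMA, which corrects the background, brings arrays to a common distribution and combines the probes of each probe set. The submitters' processing notes name R 2.7.0. Whether RMA was run on all arrays together was not stated in the labels or the methods, so that levels set across tissues rest on the deposited scale. Groups and replicate numbers came from the labels, and no source says which mice were processed together. No batch was tested, since neither scan times nor detection calls were used.

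Of 45141 probe sets in the table, 104 controls were left out and 45037 were tested. Of these, 551 had several genes and 15588 none in the platform annotation and were not named. A gene was represented by its probe set with the highest mean over 24 arrays. CAG42 minus WT was tested in each tissue alone with lmFit and eBayes of limma 3.58.1 in R 4.3.3, with Benjamini-Hochberg adjustment over all probe sets. Tissues were compared in 1 fit over 24 arrays. The script was tested on simulated data. Alternatives were 1 fit over all arrays, the replicate block, quantile normalization, array weights, a filter on dim probe sets (above 6 on at least 4 arrays), gene means, a covariate made from female-biased genes outside the P450s and leaving out each mouse. The text names members called between tissues or lower in liver, the 10 of lowest p and the 10 of largest spread in liver, the 12 of largest liver minus cerebellum difference, and up to 4 genes of lowest p of a list; other genes named were chosen after their values were seen, as was the gap of 2. The members and lists were chosen with earlier results of these data known. Promoters came from RefSeq (GRCm38.p6). Python 3.11.15 with matplotlib 3.10.9 made the figures.

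No source states that the numbers pair CAG42 with WT mice. Deviations from the group means of CAG42 and WT mice of one number correlated at -0.299 to 0.038 in liver, -0.0912 to 0.214 in brainstem and -0.174 to 0.142 in cerebellum. Arrays of one genotype and number correlated across tissues in the same measure, at 0.224 to 0.375 between cerebellum and brainstem, 0.0775 to 0.285 between cerebellum and liver and 0.0417 to 0.161 between brainstem and liver. The fit that compares tissues has no term for shared mice, and a random block of genotype and number was tried as an alternative.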

Additional observations from a re-analysis of the deposited data

Results flagged for a closer look

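In each tissue, 1 probe set of each of the 38 genes was examined in both genotypes, 228 groups of 4 mice in all. In 18 of them a mouse lay farther from the others than Dixon's critical value allows, 9 in liver, 6 in brainstem and 3 in cerebellum, where chance gives about 1 group in 20.

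Among CAG42 livers, liver 4 was low for Cyp2b10, at 5.88 with the others at 8.10 to 8.29, for Cyp2b9, at 9.77 with the others at 11.16 to 11.25, and for Cyp2j5, at 10.38 with the others at 10.81 to 10.87. CAG42 liver 1 was low for Cyp2c39, at 6.98 with the others at 11.04 to 11.49, and high for Cyp2c55, at 6.32 with the others at 4.93 to 5.12, and for Cyp2u1, at 4.19 with the others at 3.35 to 3.45. CAG42 liver 2 was high for Cyp2c38, at 10.77 with the others at 9.91 to 10.01. Among WT livers, liver 3 was low for Cyp2c37, at 7.26 with the others at 10.45 to 11.02, and liver 4 was low for Cyp2c39, at 6.36 with the others at 10.46 to 11.28. WT livers 1 and 3, both low for Cyp2b9 and Cyp2b13, did not exceed the critical value, since neither stood alone.

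All 9 values from the brain were near the level of the control probe sets. In CAG42 brainstem, mouse 1 was apart for Cyp2d13 (3.25), Cyp2d9 (2.75) and Cyp3a16 (3.13), and in WT brainstem mouse 3 for Cyp2e1 (3.45) and Cyp3a41a (2.63) and mouse 4 for Cyp2a12 (2.85). In CAG42 cerebellum, mouse 1 was apart for Cyp2c70 (3.14) and Cyp3a25 (2.50), and in WT cerebellum mouse 2 for Cyp2c37 (2.86).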

How the results depend on the processing

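The count of members called for genotype was 0 in each tissue in every setting run. With the replicate block it was 0 in liver, brainstem and cerebellum, with 6, 4 and 5 of 45 members at an unadjusted p under 0.05, beside 1095, 3397 and 2066 of 45037 probe sets. In 1 fit over all arrays 12 members and 3876 of all probe sets reached that p in liver (3 and 1512 with each tissue alone), and 0 members and 66 of all probe sets were called there; 3 interferon-stimulated genes were among them. Without WT liver 1, 6 members reached it and 6810 of all probe sets did. Members higher in liver than in cerebellum numbered 34 to 38 and than in brainstem 31 to 37; with the mouse as a random block across tissues they numbered 37 and 35, as without it.

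Of 16 named liver differences, 4 changed sign in some setting, and none was called. The difference of Cyp2c39 ran from -0.68 (without WT liver 4) to 1.52 when single mice were left out. That of Cyp2c55 was -0.12 with array weights, -0.082 with the female-biased covariate, and -0.12 to 0.43 with single mice left out. That of Cyp3a11 was -0.054 with the covariate and -0.21 (without WT liver 3) to 0.40 with single mice left out. That of Cyp3a16 was -0.088 with quantile normalization, -0.0012 with the covariate and -0.16 to 0.40 with single mice left out. The causes were not tested. Levels near 3 have no order, and 4 mice a group limit the precision.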
